A study of Mus musculus with 6 samples.

Results

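Complement is represented here by 8 genes: C1qa, C1qb and C1qc, which encode the chains of C1q; C3 and C4b, which encode central components; Cfb and Cfp, which encode factor B and properdin of the alternative pathway; and C3ar1, which encodes the receptor for the C3 fragment C3a. They were chosen by name, as the genes whose symbol stood in the gene name field of the scanner files. These 8 genes had 9 probes among 39429, and all 8 were among the 22096 genes tested. RNA of monocytic myeloid-derived suppressor cells (M-MDSCs), sorted from C57BL/6 mice, was put on 6 dual-colour Agilent mouse arrays, 3 for lung and 3 for bone marrow. Every array held treated RNA in Cy5 and mock RNA in Cy3. Treated mice were given azacytidine, which blocks DNA methyltransferases, and entinostat, which blocks class I histone deacetylases, and each treated RNA was a pool of 3 to 6 animals. The mock mice had received vehicle, each mock RNA came from 1 or 2 animals, and the labels give them an age of 6 to 8 weeks. The sources used here give neither the age of the treated mice nor doses or the length of treatment.

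Complement is a set of blood and tissue proteins that marks particles for uptake and calls in leukocytes. C1q binds antibody complexes and dying cells and starts the classical pathway, in which C4 and then C3 are cleaved. Factor B joins cleaved C3 to form the convertase of the alternative pathway, and properdin stabilises that convertase. Most complement proteins are made by the liver, whereas C1q is made chiefly by macrophages and dendritic cells and properdin by myeloid cells.

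Between 67.0% and 69.5% of spots lay well above background in the treated channel of the lung arrays, and between 60.5% and 62.8% in the mock channel. On the bone marrow arrays these shares were 55.1% to 58.6% in the treated channel and 49.9% to 55.9% in the mock channel. No spot was saturated on any array. Because every array carried treated RNA in the same dye, a dye effect and a treatment effect cannot be told apart. Lung and bone marrow arrays lay on separate slides with separate scans, so that tissue and slide cannot be told apart. The labels put treated RNA in Cy5 on every array, and positive log2 ratios here stand for higher Cy5 signal. The values of the deposited matrix correlated with Cy5 over Cy3 at 0.986 to 0.997, whereas its headings name mock over treated. The arrays do not settle this conflict. The dyes of the labels were followed, and were the headings right, every direction of treated over mock given here would turn round. Of the monocyte markers, 9 of 10 had a probe, all 9 lay well above background on all 6 arrays in both channels, and Ly6c2 and the neutrophil marker Ly6g were not matched.

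The 3 C1q genes rose together in treated lung M-MDSCs. Each was 4.77-fold to 5.62-fold higher than in mock lung cells. The level here is the signal of a probe in one channel after normalization between arrays, in arbitrary units. C1qa had levels of 22690, 15380 and 17740 in treated lung cells of replicates 1 to 3, against 2833, 3569 and 4802 in mock lung cells. The highest mock value lay below the lowest treated value. The log2 ratio of C1qa was 3.00, 2.11 and 1.89 on the 3 lung arrays and averaged 2.33 ± 0.59 (SD, n = 3, adjusted p = 0.000199). C1qb had levels of 18090, 11710 and 12950 in treated lung cells, against 2116, 2362 and 3095 in mock lung cells. Its log2 ratio averaged 2.49 ± 0.54 (SD, n = 3, adjusted p = 0.000159). C1qc had levels of 28330, 22000 and 25390 in treated lung cells, against 4137, 5136 and 6853 in mock lung cells. Its log2 ratio averaged 2.25 ± 0.46 (SD, n = 3, adjusted p = 0.000118). Treated and mock levels did not overlap for any of the 3 chains. In these bulk samples, more cells that make C1q and more C1q RNA per cell cannot be told apart.

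The 3 chains kept close to each other on every lung array. Their log2 ratios lay within 0.32 of each other on replicate 1, within 0.21 on replicate 2 and within 0.18 on replicate 3. The mean over the chains was 2.96 on lung replicate 1, 2.17 on replicate 2 and 1.95 on replicate 3, so replicate 1 stood highest for all 3. The probe of C1qc was printed as 10 spots on each array, and its log2 ratios had an SD between spots of 0.01 to 0.04 on the lung arrays. The SD of 0.46 between the lung arrays was thus more than 10 times the spread between spots of 1 array.

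The C1q probes lie within 15891 bases of chromosome 4 of build mm9, from 136436578 to 136452468, all on the minus strand. The C1qa probe, at chr4:136452409-136452468, is shown because its gene had no promoter sequence here. It is written whole in lower case, as nothing within it is marked.
C1qa probe: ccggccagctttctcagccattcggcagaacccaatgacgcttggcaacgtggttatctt
The 250 bases before the starts of C1qb and C1qc are shown because these neighbouring genes moved together. They are RefSeq sequences on build GRCm38.p6, written 5′ to 3′ on the minus strand, at chr4:136886201-136886450 for C1qb and at chr4:136892915-136893164 for C1qc. Capitals mark matches, on either strand, to any of 8 motifs. These were GAGGAA (PU.1), TTGCNNAA (C/EBP), TGANTCA (AP-1), TTCNNNGAA (GAS), GAAANNGAA (ISRE), TGCTGA (MAF), CACGTG (E-box) and the NF-kB consensus.
C1qb: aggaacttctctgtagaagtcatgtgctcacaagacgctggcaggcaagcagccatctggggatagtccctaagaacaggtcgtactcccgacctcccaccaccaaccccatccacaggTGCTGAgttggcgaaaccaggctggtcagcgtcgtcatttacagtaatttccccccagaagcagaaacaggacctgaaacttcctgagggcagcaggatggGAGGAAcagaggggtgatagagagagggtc
C1qc: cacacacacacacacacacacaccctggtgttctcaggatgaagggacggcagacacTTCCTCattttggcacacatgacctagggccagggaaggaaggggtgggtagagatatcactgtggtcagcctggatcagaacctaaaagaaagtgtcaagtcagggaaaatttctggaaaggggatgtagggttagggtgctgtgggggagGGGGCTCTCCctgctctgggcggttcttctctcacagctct
Both windows held 1 GAGGAA match, a core bound by the myeloid factor PU.1, as did 23.4% of 32536 distinct mouse promoters of that length. TGCTGA was found in the C1qb window and in 16.1% of promoters. The C1qc window held 1 NF-kB match, as did 3.92% of promoters. The other 5 motifs had no match in either window, and no 2 matches overlapped. The C1qb window held 6 CpG dinucleotides, the median of all promoters, and the C1qc window held 2.

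In bone marrow M-MDSCs C1qa and C1qc were near background and C1qb was low but above it in both groups, and none of the 8 complement genes passed the test. That is 0 of 8, where 14.4% of all genes tested were called at an adjusted p under 0.05 in either direction, 7.25% higher and 7.14% lower. C1qa had levels of 96.9, 115.6 and 101.7 in treated marrow cells, against 86.8, 111.5 and 111.2 in mock marrow cells. The groups overlapped. The treated signal was well above background on all 3 arrays, and the mock signal on none of them. C1qb, well above background on all arrays, had levels of 254.1, 236.5 and 194.2 in treated marrow cells, against 204.4, 276.8 and 194.2 in mock marrow cells. C1qc had levels of 135.7, 131.2 and 113.8 in treated marrow cells, against 121.1, 136.6 and 122.6 in mock marrow cells. It was well above background on all 3 arrays in the treated channel and on 1 of 3 in the mock channel. The log2 ratios averaged 0.03 ± 0.15 for C1qa, 0.03 ± 0.27 for C1qb and 0.00 ± 0.14 for C1qc (SD, n = 3 each, adjusted p between 0.936 and 0.999). The 95% interval of C1qb, the chain well above background on all marrow arrays, ran from -0.41 to 0.47.

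In lung, 5 of the 8 complement genes were called higher in treated cells, where 20.0% of all genes were, and 1 was called lower, where 14.0% of all genes were. The genes called higher were C1qa, C1qb, C1qc, C3ar1 and Cfp, the gene called lower was Cfb, and C3 and C4b did not pass. Of all genes called in lung, 58.7% were higher. That share was 92.4% when arrays were centred on their median in place of loess, which called 963 genes in place of 7510. On single arrays the median log2 ratio of the 8 genes was 1.01, 1.14 and 1.12 in lung, while the median over all genes tested was 0.01. These medians fall in a gap that holds none of the 8 genes. C1qa, C1qb, C1qc and C3ar1 were at 1.59 or above on every lung array, and the others at 0.43 or below.

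C3ar1, the receptor through which C3a acts on myeloid cells, rose 3.65-fold in treated lung cells. Its levels were 1050, 1208 and 1342 in treated lung cells, against 348, 305.9 and 330.1 in mock lung cells. The groups were far apart, and unlike the C1q genes C3ar1 had its smallest ratio on lung replicate 1. The log2 ratios were 1.59, 1.98 and 2.02 and averaged 1.87 ± 0.24 (SD, n = 3, adjusted p = 6.1e-05). In marrow the levels were 171.5, 194 and 124.5 in treated cells, against 137.7, 151 and 122.6 in mock cells. The marrow groups overlapped, although each array had the treated value above its own mock value. The treated signal was well above background on all 3 marrow arrays, and the mock signal on 1 of 3. The marrow log2 ratio averaged 0.23 ± 0.18 (SD, n = 3, adjusted p = 0.164). With the scanner software's processed signals it was 1.07 with an adjusted p of 0.029. With the background taken from negative control spots it was 0.41 and did not pass (adjusted p = 0.0715).

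C3, the component on which all pathways converge, had high signals in both tissues. It did not pass the test in either one. Its levels were 20380, 22360 and 16730 in treated lung cells, against 23430, 27950 and 29010 in mock lung cells. All 3 treated levels lay below the mock levels, and the log2 ratio averaged -0.44 ± 0.31 (SD, n = 3, adjusted p = 0.0518). In marrow C3 had levels of 38880, 44240 and 30590 in treated cells, against 51280, 49980 and 54220 in mock cells. Here too the groups did not overlap, and the log2 ratio averaged -0.47 ± 0.33 (SD, n = 3, adjusted p = 0.07). Both values lay close to the threshold. The lung value passed it without lung replicate 1 (-0.56, adjusted p = 0.0461), without bone marrow replicate 3 (adjusted p = 0.0314), in the same fit to the authors' deposited table of log2 ratios (-0.46, adjusted p = 0.0416) and with the mean of both C3 probes (-0.45, adjusted p = 0.0499). The marrow value passed it without lung replicate 3 (adjusted p = 0.0495) and with the background taken from negative control spots (adjusted p = 0.0493). The second C3 probe gave -0.47 ± 0.34 in lung and -0.51 ± 0.33 in marrow (SD, n = 3 each).

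The promoters of C3ar1 and C3 are shown because the receptor gene rose in lung while the gene of its ligand's precursor did not. They are the 250 bases before the RefSeq starts on GRCm38.p6, both on the minus strand, at chr6:122856158-122856407 and chr17:57228137-57228386, with the same 8 motifs in capitals.
C3ar1: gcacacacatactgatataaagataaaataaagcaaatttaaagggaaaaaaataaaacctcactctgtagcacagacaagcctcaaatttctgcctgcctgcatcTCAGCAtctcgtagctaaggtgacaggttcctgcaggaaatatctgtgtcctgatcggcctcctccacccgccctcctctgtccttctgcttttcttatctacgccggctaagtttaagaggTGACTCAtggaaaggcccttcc
C3: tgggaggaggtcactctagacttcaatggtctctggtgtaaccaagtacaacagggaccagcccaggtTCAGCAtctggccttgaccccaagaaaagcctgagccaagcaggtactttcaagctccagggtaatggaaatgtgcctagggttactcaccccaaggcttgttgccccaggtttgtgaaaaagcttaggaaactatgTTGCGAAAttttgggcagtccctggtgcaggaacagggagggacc
The C3ar1 window held TGANTCA, the AP-1 motif found in 6.73% of promoters, 22 bases before the start, and 1 TGCTGA match. The C3 window held TTGCNNAA, the C/EBP motif found in 9.57% of promoters, 45 bases before the start, and 1 TGCTGA match. The C3ar1 window held 5 CpG dinucleotides and the C3 window 1. Promoter sequences were matched for 5 of the 8 genes. The window of Cfp, the fifth, held none of the 8 motifs.

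C4b, which encodes the mouse C4 of the classical pathway, had levels of 3280, 2705 and 2880 in treated lung cells, against 2685, 2246 and 2640 in mock lung cells. Each of the 3 treated levels was above every mock level, yet the log2 ratio of 0.23 ± 0.09 did not pass (SD, n = 3, adjusted p = 0.0775). Leaving out bone marrow replicate 1 or 3, which enter the shared spread, brought its adjusted p to 0.0497 and 0.0496. In marrow its levels were 1516, 1744 and 963.4 in treated cells, against 1477, 2001 and 1248 in mock cells, and the log2 ratio averaged -0.18 ± 0.21 (SD, n = 3, adjusted p = 0.19). The marrow groups overlapped.

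Cfb, the gene of the alternative pathway's protease, fell in treated lung cells. Its levels were 4175, 2826 and 3179 in treated lung cells, against 5706, 4305 and 5194 in mock lung cells, and the groups did not overlap. The log2 ratios were -0.45, -0.61 and -0.71 and averaged -0.59 ± 0.13 (SD, n = 3, adjusted p = 0.00272). With loess replaced by median centring the value was -0.36 with an adjusted p of 0.562. In marrow Cfb had levels of 3300, 3973 and 1630 in treated cells, against 2900, 3257 and 1787 in mock cells. The marrow groups overlapped, with replicate 3 lowest in both, and the log2 ratio averaged 0.11 ± 0.22 (SD, n = 3, adjusted p = 0.434). The Cfb probe is shown because it covers 357 bases of the genome, at chr17:34993502-34993858 on the minus strand of mm9, with 297 bases between its parts, and so reads spliced RNA.
Cfb probe: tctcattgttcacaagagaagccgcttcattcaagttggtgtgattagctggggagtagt

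Cfp, the properdin gene on the X chromosome, had levels of 11170, 9648 and 10820 in treated lung cells, against 8309, 7886 and 8446 in mock lung cells. The groups did not overlap, and the small difference was even across arrays. The log2 ratio averaged 0.36 ± 0.07 (SD, n = 3, adjusted p = 0.0333), which is 1.28-fold. This call did not hold without lung replicate 1, 2 or 3 (adjusted p = 0.111, 0.0868 and 0.101), nor without bone marrow replicate 2 (adjusted p = 0.0576). It was also lost with median centring (adjusted p = 0.222), scale normalization between arrays (adjusted p = 0.166) and the scanner software's processed signals (adjusted p = 0.0604). In marrow the levels were 15090, 16180 and 11340 in treated cells, against 11390, 13800 and 12760 in mock cells, and the log2 ratio averaged 0.16 ± 0.30 (SD, n = 3, adjusted p = 0.34).

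**Figure D1:**
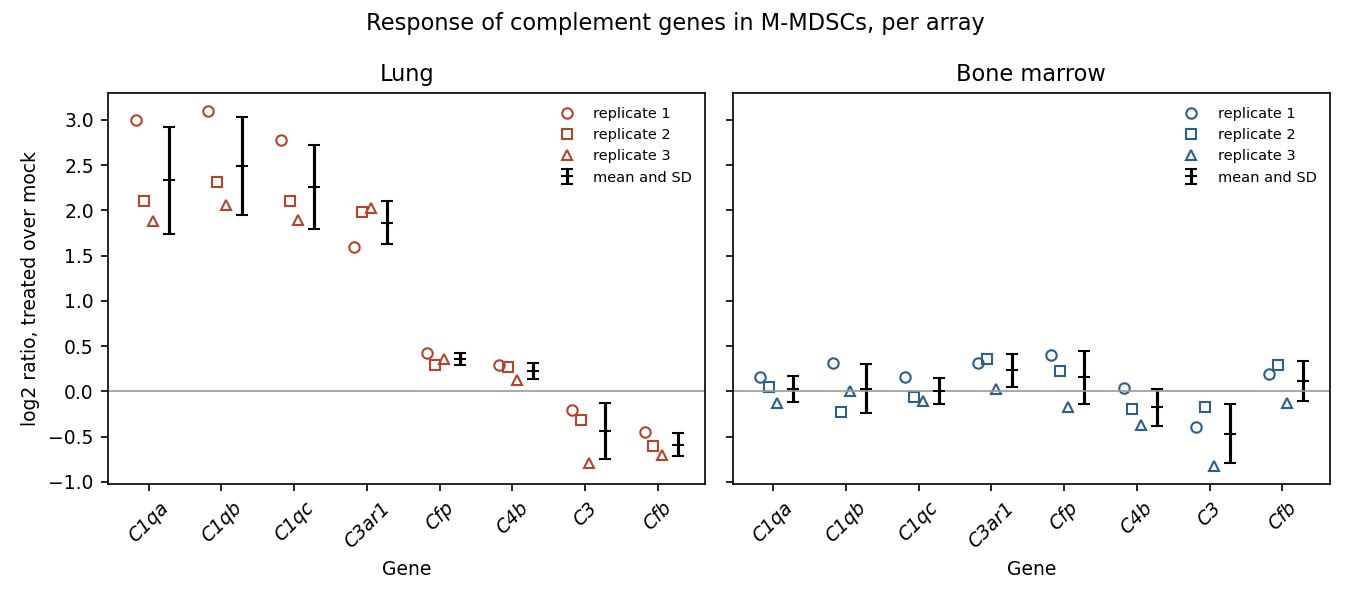
Log2 ratio of treated over mock for each complement gene, in lung (left) and bone marrow (right). Symbols are the 3 arrays of a tissue, and bars give their mean and SD. In lung the C1q genes lie at 1.89 or above and C3ar1 between 1.59 and 2.02, while no complement gene exceeds 0.41 in bone marrow.

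The next question was whether the response differed between the tissues, taken as the lung ratio minus the marrow ratio. The difference was called higher in lung for 4 of the 8 complement genes, where 9.78% of all genes were, and lower for 1, where 5.46% were. On the log2 scale it was 2.30 for C1qa (95% interval 1.68 to 2.93, adjusted p = 0.00275), 2.46 for C1qb (1.84 to 3.08, adjusted p = 0.00217) and 2.26 for C1qc (1.75 to 2.76, adjusted p = 0.00153). For C3ar1 it was 1.63 (1.29 to 1.98, adjusted p = 0.00124). For Cfb it was -0.70 (-1.01 to -0.40, adjusted p = 0.0137). The arrays of the 2 tissues did not overlap for these 5 genes. C3 (0.03, interval -0.45 to 0.51), Cfp (0.20, interval -0.14 to 0.55) and C4b (0.41, interval 0.12 to 0.69, adjusted p = 0.0612) did not pass. The C4b difference passed without bone marrow replicate 1 (0.51, adjusted p = 0.043). The Cfb call was lost when bone marrow replicate 1 was left out (-0.67, adjusted p = 0.0523) and likewise replicate 2 (-0.62, adjusted p = 0.0551). With median centring only C1qc of the 4 genes called higher still passed, with adjusted p between 0.062 and 0.0639 for C1qa, C1qb and C3ar1. With the scanner software's processed signals C1qa (1.27, adjusted p = 0.309) and C3ar1 (1.00, adjusted p = 0.116) no longer passed. Of all genes called, 64.2% were higher in the main setting and 84.8% with median centring.

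Across the 4 conditions the levels of each gene had their own order. For C1qa, C1qb, C1qc and C3ar1, treated lung was highest, mock lung came next, and the treated and mock marrow cells came last with overlapping levels. For C3ar1 each marrow array had the treated value above its own mock value. Treated lung over treated marrow was 176-fold for C1qa, 61.7-fold for C1qb, 198-fold for C1qc and 7.44-fold for C3ar1 (adjusted p between 2.6e-08 and 5.87e-06). Raw treated marrow signals were 96.2 to 101.8 for C1qa and 107.7 to 126.5 for C1qc, where the median spot of these arrays had 107.1 to 123.4. The size of their folds is therefore uncertain. Mock lung over mock marrow was at least 35.6-fold for C1qa, whose mock marrow signal was not well above background. It was 11.2-fold for C1qb, 41.6-fold for C1qc and 2.40-fold for C3ar1 (adjusted p between 2.12e-07 and 1.49e-05), with C1qc and C3ar1 well above background on 1 of 3 mock marrow arrays each. The lung cells thus carried more C1q signal than marrow cells in mock mice as well.

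For C4b, treated and mock lung stood above treated and mock marrow. Lung over marrow was 1.11 on the log2 scale in treated cells (adjusted p = 0.0024) and 0.70 in mock cells (adjusted p = 0.00641). For Cfb, mock lung stood highest. Mock lung over mock marrow was 0.97 (adjusted p = 0.00487), while treated lung over treated marrow was 0.27 with overlapping groups (adjusted p = 0.483). Without normalization between arrays the comparison of treated cells gave 1.43 (adjusted p = 0.00701). C3 was lower in lung than in marrow by -0.93 in treated and -0.96 in mock cells, and Cfp by -0.42 and -0.62, but without normalization between arrays these turned to 0.51 and 0.48 for C3 and to 1.07 and 0.87 for Cfp. The order of the tissues for C3 and Cfp therefore depends on that step. It moved the median log2 difference over all genes to 0.31 in treated and 0.33 in mock cells, against -0.05 and -0.04 with normalization. Called in treated cells were 5 of 8 higher in lung, where 28.4% of all genes were, and 2 lower, where 34.0% were. In mock cells 6 of 8 were called higher in lung, where 29.6% of all genes were, and 2 lower, where 36.4% were. The share of higher calls among all genes called was 45.5% in treated and 44.9% in mock cells, against 85.2% and 86% without normalization between arrays.

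**Figure D2:**
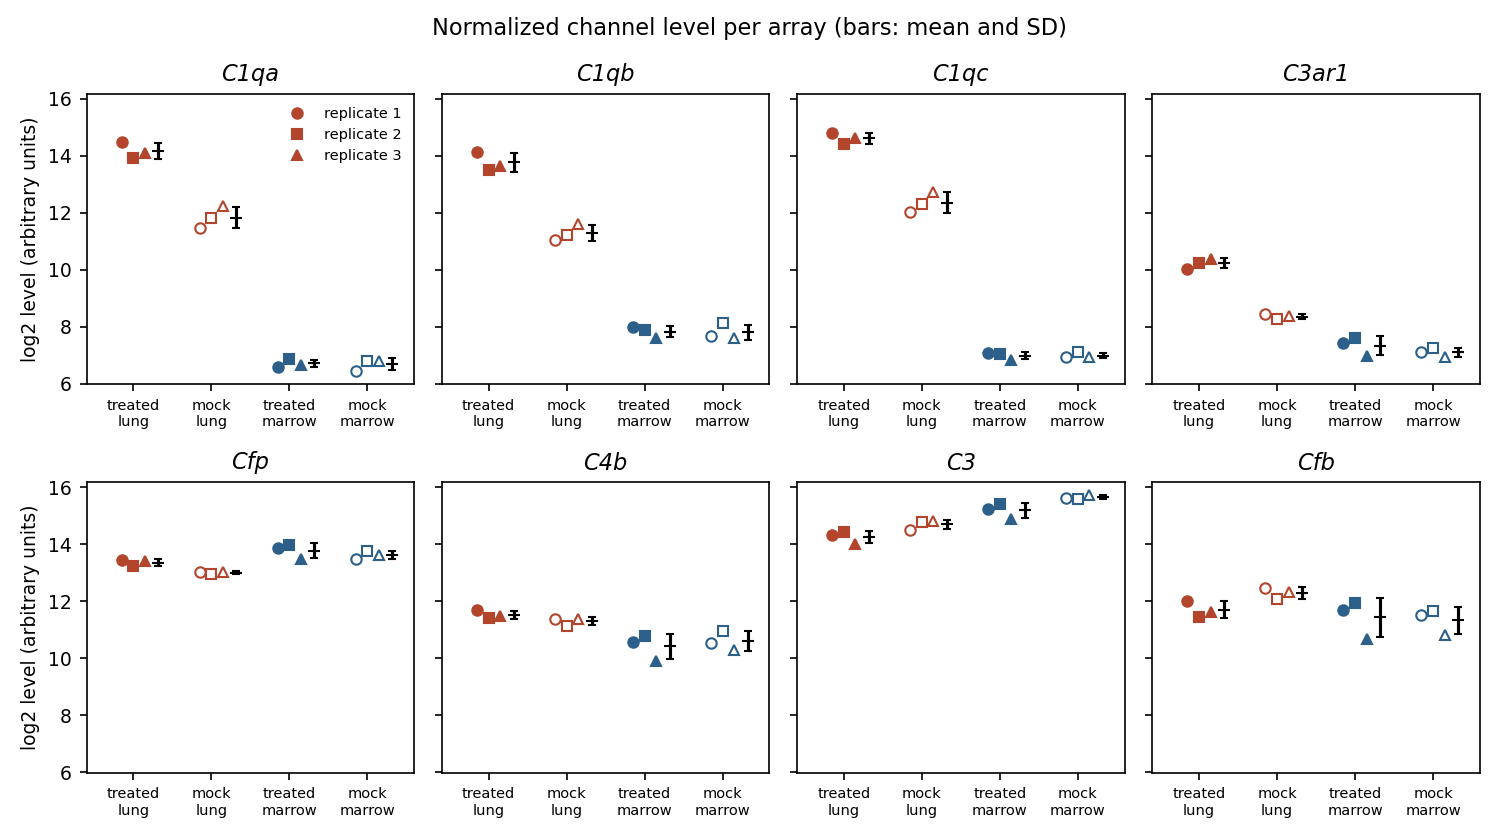
Normalized level on a log2 scale (arbitrary units) in each channel, for treated lung, mock lung, treated marrow and mock marrow cells. Filled symbols are treated and open symbols mock, symbol shapes are the 3 replicates, and bars give mean and SD. C1qa averages 14.16 in treated lung, 11.83 in mock lung, 6.71 in treated marrow and 6.68 in mock marrow cells; levels are not comparable between genes.

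The response was then followed through 36 other complement genes, of which 35 had a probe and 27 were kept. In lung 11 of the 27 were called higher, where 20.0% of all genes were, and 3 lower, where 14.0% were. The median log2 ratio in lung was 0.37. In marrow 3 were called higher, where 7.25% of all genes were, and 2 lower, where 7.14% were, with a median of 0.05. The same shares of all genes apply to the treated over mock counts of each list below. With loess replaced by median centring the lung counts were 5 higher and 0 lower.

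Of the 8 receptors 7 rose and 1 fell in lung, with a median log2 ratio of 1.20. The highest was Vsig4, a macrophage receptor for C3 fragments, with log2 ratios of 2.67, 1.29 and 1.51 on the 3 lung arrays and a mean of 1.82 ± 0.74 (SD, n = 3, adjusted p = 0.00112). In marrow its signal was not well above background on any array. C5ar1, the main receptor for C5a, had 1.43, 1.60 and 1.70 on the lung arrays, a mean of 1.57 ± 0.14 (SD, n = 3, adjusted p = 6.04e-05). It also rose in marrow, by 0.44 ± 0.19 (SD, n = 3, adjusted p = 0.019), and the lung response was larger by 1.13 (adjusted p = 0.00226). The marrow call of C5ar1 was lost when bone marrow replicate 1 (adjusted p = 0.0714) or replicate 2 (adjusted p = 0.109) was left out. Itgax, the alpha chain of complement receptor 4, had 1.67, 1.28 and 1.30 on the lung arrays and averaged 1.42 ± 0.22 (SD, n = 3, adjusted p = 8.91e-05).

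The remaining receptors are named to complete that list. C5ar2, the second C5a receptor, averaged 1.23, Cd93, a surface protein once described as a C1q receptor, 1.18, Itgam, the alpha chain of complement receptor 3, 0.64, and Itgb2, the shared beta chain, 0.41 in lung. The call of Itgb2 was lost without any 1 of the lung arrays (adjusted p between 0.0752 and 0.0877). Itgam no longer passed with the mean of its kept probes (0.41, adjusted p = 0.0716) or with median centring (adjusted p = 0.144). Cr2, a receptor best known from B cells and follicular dendritic cells, fell by 0.70 on the log2 scale in lung (SD 0.19, n = 3, adjusted p = 0.00082). The tissue difference was called higher in lung for 5 of the 8 receptors, where 9.78% of all genes were, and lower for 1, where 5.46% were. The higher calls were 3 without bone marrow replicate 1 or without replicate 2, 1 in processed signals and 0 when centred on the median. In marrow Cd93 rose by 0.69 ± 0.52 (SD, n = 3, adjusted p = 0.043), a call lost without bone marrow replicate 1 or 2 or lung replicate 2 (adjusted p between 0.0753 and 0.227).

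Among the recognition and initiating genes 2 of 8 kept genes rose and 1 fell in lung, and none passed in marrow. Fcna, the gene of ficolin A, averaged 1.47 ± 1.16 (SD, n = 3, adjusted p = 0.0152), carried by 2.81 on replicate 1 against 0.90 and 0.72 on the others. C1ra, a protease of the C1 complex, averaged 0.75. Masp1, a protease of the lectin pathway was at least 1.29-fold lower in treated lung cells (adjusted p = 0.00319), where it was not well above background on any array. Its signal was well above background on 2 mock lung arrays and on no other, so it was kept through the group where it is high, and the stricter filter on dim probes removed it. Of the other proteases C2 (0.27) and Cfd (0.26) did not pass. None of the 4 kept terminal pathway genes passed in lung, and in marrow C8g alone did, at 0.29 (adjusted p = 0.0299), a call lost without any 1 of the bone marrow arrays or lung replicate 2 (adjusted p between 0.0598 and 0.16).

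Of the 7 kept regulators 2 rose and 1 fell in lung, and 2 fell in marrow. Those that rose were Serping1 (0.37, adjusted p = 0.00314), the gene of C1 inhibitor, and Cd59a (0.49, adjusted p = 0.0287), a membrane inhibitor of the terminal complex, both named after their values were seen. Both calls were lost with median centring (adjusted p = 0.106 for Serping1 and 0.149 for Cd59a) and did not hold in processed signals (adjusted p = 0.317 for Serping1 and 0.101 for Cd59a). The Cd59a call was also lost without lung replicate 1 or 3 or bone marrow replicate 2 (adjusted p between 0.0545 and 0.0864). Clu, whose product clusterin restrains the terminal complex, fell by 0.90 in lung (SD 0.15, n = 3, adjusted p = 0.00269). The Clu call was lost with median centring (adjusted p = 0.133) and in processed signals (adjusted p = 0.0778). Cr1l, the gene of the membrane regulator Crry of rodents, fell by 0.62 in marrow (SD 0.14, n = 3, adjusted p = 0.00458). This call was lost with median centring (-0.11, adjusted p = 0.831).

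**Figure D3:**
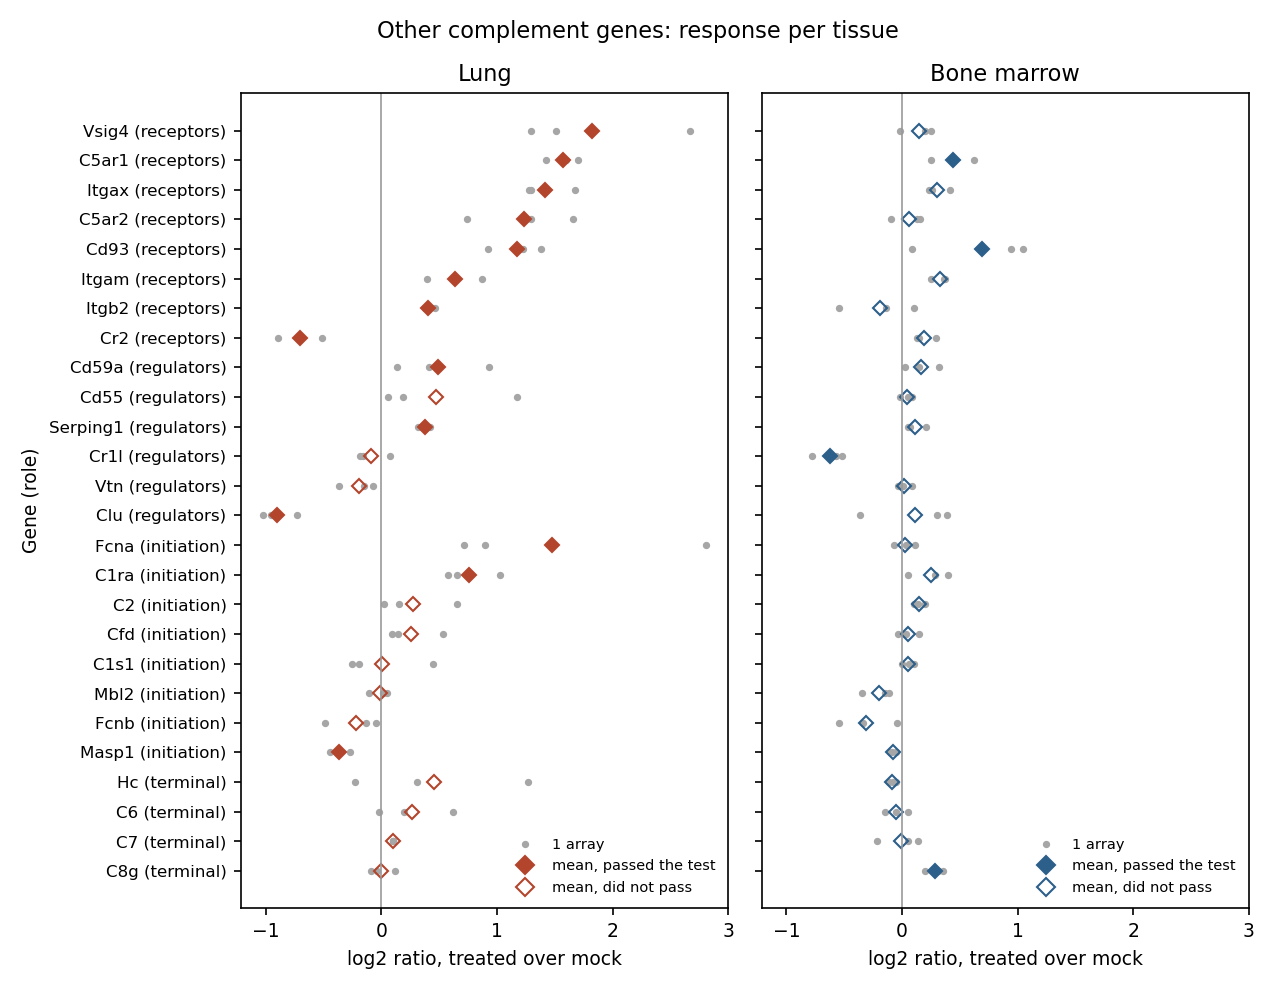
Log2 ratio of treated over mock for 26 of the 27 other complement genes, grouped by role, in lung (left) and bone marrow (right). Small points are single arrays, and diamonds are means, filled where the gene passed at an adjusted p under 0.05. In lung 7 of 8 receptors lie to the right of 0 with filled diamonds, from 0.41 for Itgb2 to 1.82 for Vsig4.

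Marker genes of several other cell types moved with the lung response of the C1q genes and receptors. Of all genes, 20.0% were called higher and 14.0% lower in lung, and 7.25% higher and 7.14% lower in marrow. Macrophage markers were called higher for 9 of 11 kept genes and lower for 0 in lung, with a median log2 ratio of 1.06. The first of them, Mertk, averaged 2.28 (adjusted p = 1.39e-05). Their summed level was 189604 to 233545 in treated lung cells, against 65649 to 84782 in mock lung cells. Summed levels are carried by the brightest probes of a list, here Apoe and Csf1r (mean log2 levels 16.33 and 16.11 in treated lung cells). Alveolar macrophage markers were called higher for 9 of 10, with a median of 1.18. Their summed level was 108808 to 199413 in treated lung cells, against 90617 to 110136 in mock lung cells. Most of that sum came from Chil3, the brightest of the list and the gene not called (0.28, adjusted p = 0.342). Its mean log2 level was 16.64 in treated lung and 16.80 in treated marrow cells. In treated marrow cells the summed level of the list was 109541 to 135531. Siglecf averaged 2.06 (adjusted p = 0.000993) and Marco 0.76 (adjusted p = 0.046). The Marco call was lost without lung replicate 1 (0.47, adjusted p = 0.202), without lung replicate 3 (adjusted p = 0.183) and without any 1 of the bone marrow arrays (adjusted p between 0.0661 and 0.0801). In marrow 2 of the 11 macrophage markers were called lower, among them Csf1r (-1.14), and none higher, and none of the alveolar macrophage markers passed. In marrow Mertk was not well above background on any array in either channel.

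Lung epithelial markers were called higher for 8 of 10 in lung, with a median of 1.73. Their summed level was 61267 to 94089 in treated lung cells, against 16530 to 30685 in mock lung cells. Of the 8 called higher, Nkx2-1 was well above background only on the treated lung arrays, so it was kept through the group where it is high. The surfactant genes Sftpa1 and Sftpb averaged 2.32 and 1.97 and were not well above background on any marrow array. Endothelial markers were called higher for 8 of 9 (median 0.98), among them Cldn5 (1.51) and Cdh5 (0.98), with a summed level of 28245 to 34354 in treated lung cells, against 12369 to 16660 in mock lung cells. Neutrophil markers were called higher for 6 of 9 (median 1.45, Ngp 1.45), with a summed level of 54234 to 131559 in treated lung cells, against 18115 to 48382 in mock lung cells. Only 3 of them passed without lung replicate 1, 2 without lung replicate 2, 2 when lung was fitted alone, and 1 each with median centring and with scale normalization between arrays. Ngp itself was lost without lung replicate 1 (0.97, adjusted p = 0.191), without lung replicate 2 (adjusted p = 0.212) and without any 1 of the bone marrow arrays (adjusted p between 0.0637 and 0.0777). The median neutrophil marker had a log2 ratio of 2.07, 2.22 and -0.15 on lung replicates 1 to 3, whereas the mean of the C1q chains was 2.96, 2.17 and 1.95.

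Other lists moved down or stayed mixed in lung. B cell markers were called lower for 5 of 6 (median -1.25, Cd79a -1.33 and Ms4a1 -2.17), with a summed level of 1570 to 1888 in treated lung cells, against 3243 to 5226 in mock lung cells. T and NK cell markers were called lower for 4 of 8 (median -0.28, Cd3e -0.24). Only 2 members, Cd3e not among them, were called lower without lung replicate 2 or without lung replicate 3. Of the 4, Ncr1 was well above background on 2 mock lung arrays and on no other, so it was kept through the group where it is high. Monocyte markers were called higher for 1 and lower for 4 of 9 (median -0.36). Their summed level was 203592 to 245256 in treated lung cells, against 206231 to 238294 in mock lung cells. The 1 called higher, Ms4a4c, turned to -0.29 with the mean of its kept probes (adjusted p = 0.128). Of 6 fibroblast markers 2 were called lower (median 0.47), Col1a1 and Col1a2 did not pass, and without lung replicate 1 there were 2 called higher. In marrow the B cell, T and NK cell, neutrophil and fibroblast lists had no member that passed. Of the neutrophil markers 4 were called higher and 2 lower when bone marrow was fitted alone, and 1 higher and 2 lower without lung replicate 3. The epithelial list had Cdh1 called higher, by at least 1.63-fold, since its mock signal was not well above background on any array. The endothelial list had Egfl7 (1.65) and Eng (0.78) called higher. The monocyte list had Ly6c1 (0.65) and Ms4a4c (0.58) called higher and Ccr2 (-0.84) and S100a4 (-0.60) called lower, and both lower calls were lost whichever bone marrow array was left out. Its higher calls were 0 without bone marrow replicate 1 or 3 and 1 without replicate 2. They were also 0 with the mean of all kept probes per gene (Ly6c1 0.49, adjusted p = 0.0708, and Ms4a4c 0.12, adjusted p = 0.55). The genes given here for the epithelial, endothelial and monocyte lists in marrow were named after their values were seen. The part of these cell types in the complement result was not tested.

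**Figure D4:**
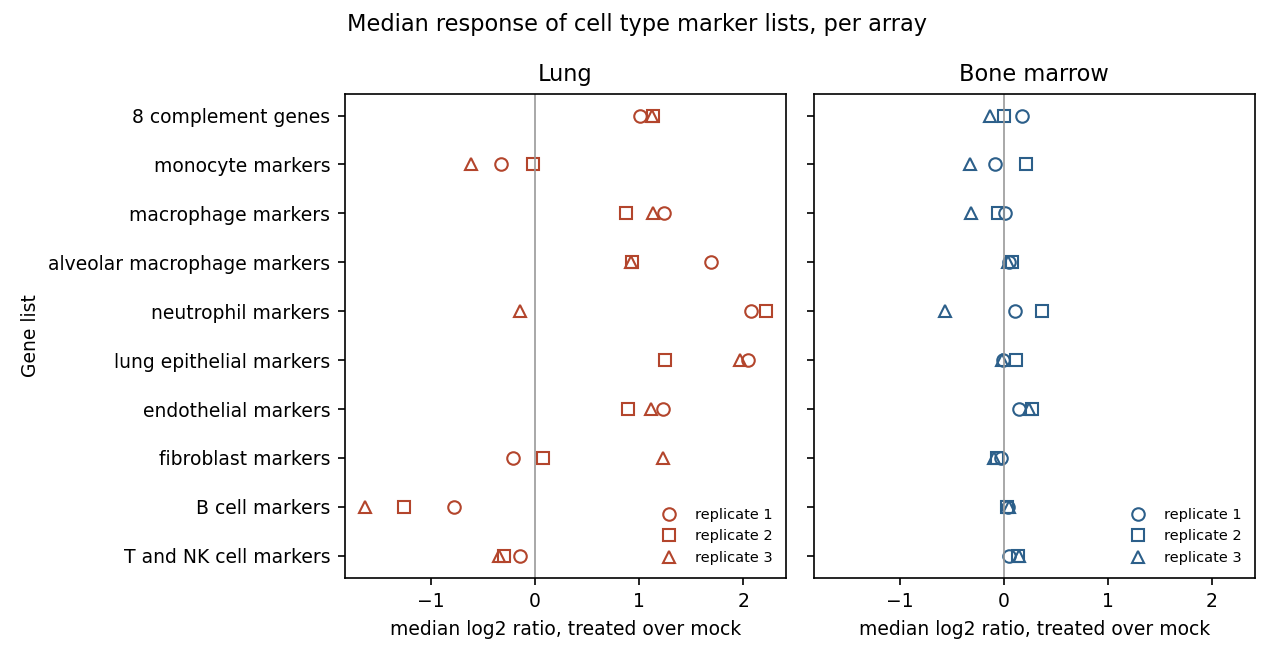
Median log2 ratio of treated over mock for the 8 complement genes and for each list of cell type markers, in lung (left) and bone marrow (right). Symbols are the 3 arrays of a tissue. In lung the macrophage, alveolar macrophage, epithelial and endothelial lists lie right of 0 on all 3 arrays, and the neutrophil list lies at -0.15 on replicate 3. The lung medians of the 8 complement genes fall in a gap that holds none of these genes.

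The genes whose log2 ratios were most like those of C1q were found by the root mean square difference over the 6 arrays. For the mean of the 3 C1q chains these were Neurl1a (0.19), Lyve1 (0.19), B3galnt1 (0.20), Ccl12 (0.21) and Zmynd15 (0.21). Lyve1, a hyaluronan receptor of lymphatic vessels and some macrophages, averaged 2.53 in lung and -0.01 in marrow, and Ccl12, a chemokine for monocytes, 2.44 in lung and 0.02 in marrow. The nearest to C3ar1 were Egr2, Wfdc21 and Slc13a3 (0.21 to 0.22), with lung means between 1.68 and 1.98. The nearest to Cfb were H3c1, Rnu2-10 and Cdk5rap3 (0.11 to 0.13), and the nearest to C3 were Klf13, Selplg and Mocs1 (0.11 to 0.13). Cfp lay closest to Gipc1, Lsr and Bmp1 (0.05 to 0.07) and C4b to Clptm1, Atxn1 and R74862 (0.06).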

How the data were processed

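The scanner files hold spot intensity values and local backgrounds as deposited, scanned with Agilent Feature Extraction 10.7.3.1 and placed on mm9 per the file headers. They also give log10 ratios of processed signals, made by the scanner software per the file headers and not used here. The deposited matrices hold log2 ratios made by the authors with limma, per the submitters' processing notes. From the intensities, log2 Cy5 over Cy3 was computed with limma 3.58.1 in R 4.3.3 (normexp with offset 50, loess within arrays), and channel levels were additionally normalized between arrays (Aquantile). A probe had to be well above background on 2 or more arrays of a tissue in 1 channel, which kept 27693 of 39429, and the brightest represented each gene. One mean per tissue was fitted over 6 arrays, with Benjamini-Hochberg adjustment over 22096 genes and a threshold of 0.05. The number of arrays, 3 per tissue, limits the precision. Bounds replace folds where 1 group was not well above background. Probe names were updated by accession (26581), symbol (2597) or synonym (492). All complement genes were named; other complement genes by the largest ratios that passed, up to 4 per direction; marker lists by their first 2 genes. Some genes of these lists are counted but not reported by name here. The members and lists were chosen with earlier results of these data known. Tested on simulated data with 200 of 22090 genes changed, the lung fit recovered 99 of 100 changes of size 2 (log2) and 89 of 100 of size 1, with 6 false calls, and the fit of channel levels 98 and 75, with 16 false calls.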

Additional observations from a re-analysis of the deposited data

Results flagged for a closer look

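In the main setting the response to treatment differed between lung and bone marrow M-MDSCs for 5 of the 8 complement genes, by the test of the difference itself. On the log2 scale, lung minus bone marrow, it was 2.30 for C1qa, 2.46 for C1qb, 2.26 for C1qc and 1.63 for C3ar1, all higher in lung. For Cfb it was -0.70, lower in lung. With median centring only C1qc of the 5 still passed. With the scanner software's processed signals C1qa and C3ar1 no longer passed, and the Cfb call was lost without bone marrow replicate 1 or 2. The mock marrow signal was well above background on 0 of 3 arrays for C1qa and on 1 of 3 for C1qc and C3ar1. The treated marrow signal of these genes was well above background on all 3 arrays. For each of the 5 genes the 3 lung arrays did not overlap with the 3 bone marrow arrays. Groups of 3 arrays are too small to test for single arrays that lie apart.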

How the results depend on the processing

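Single values of complement genes stayed on the same side of the threshold in 516 cases, passed it newly in 11, no longer passed in 21 and reversed in 4. The reversed ones were C3 (0.51) and Cfp (1.07) for treated lung over treated marrow and C3 (0.48) and Cfp (0.87) for mock lung over mock marrow, without normalization between arrays, where 0 members were called lower in either. Of the values that were not called, 17 changed sign. Higher calls in marrow were 1 with processed signals, and lower calls 1 with the background from negative control spots. Lower calls in lung were 0 with median centring and 2 with the authors' deposited matrix or the mean of probes. Of the tissue difference, 1 (median centring) and 2 (processed signals) members were higher and 0 (median centring) lower. With 1 array left out, lower calls ranged from 0 to 1 in marrow, 1 to 2 in lung, 0 to 1 for the tissue difference and 1 to 2 for treated lung over treated marrow.

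Genes called in marrow (3180) were 0 with median centring, where 3951 had an unadjusted p under 0.05, 6054 with negative control spots, 6464 with processed signals and 995 to 1918 without bone marrow replicate 1, 2 or 3 or lung replicate 2. Median centring gave 963 in lung and 33 for the tissue difference (3368 in the main setting), which had 1504 to 2239 without a bone marrow array. Mock lung over mock marrow had 9468 without normalization between arrays and 14574 with it. Other complement genes called in marrow (3 higher, 2 lower) were 8 and 5 with processed signals, and 0 higher without bone marrow replicate 1 or 2; these counts over lists were added after the results were seen. The causes were not tested.

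With the replicate block the tissue difference called 2859 genes, and none of the 8 genes' calls changed; the difference of Cr1l was lost (0.54, adjusted p = 0.0525). The deviations of same-numbered arrays of the tissues correlated at 0, 0.116 and 0.047. These values cannot show whether such arrays share animals, and the labels give only a replicate number. Signals near background limit C1qa, C1qc and C3ar1 in marrow. C1qb was low there too, with raw treated signals of 210.9 to 244.1. After background correction the median treated signal of negative control spots lay 240.3 above the offset on bone marrow replicate 1. It lay 13.5 and 16.0 above the offset on replicates 2 and 3. On lung replicates 1 to 3 it lay 14.1, 87.0 and 13.3 above the offset. The median mock signal of these spots lay highest on bone marrow replicate 1 (52.7) and next on lung replicate 2 (25.7).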
